A study of Arabidopsis thaliana with 20 samples.

Results

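The plastid-encoded transcripts of Arabidopsis thaliana were examined in RNA sequencing libraries of whole rosettes. All gene rows on the plastid chromosome (Pt in the files) with a total of 20 or more counts over the 20 libraries were taken, which gave 85 members out of 133 plastid rows and 33602 genes in all. RefSeq describes 72 of the members as protein-coding and 12 as tRNA genes, and 1 member, ATCG00290, had no RefSeq gene on its strand. Members with the fewest counts were rps15 with 22 and trnW with 29 in all, and rps16 with 17 and trnM with 16 lay just below the threshold.

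The study's title names the response to apoplastic reactive oxygen species, those formed outside the plasma membrane, and the roles in it of the transcription factors WRKY25, WRKY33 and WRKY75. Rosettes 3 weeks old were exposed to ozone at 350 ppb during 2 h or were sampled untreated. Groups were the Columbia wild type (Col-0) with 4 libraries of each treatment, and the mutants wrky25 wrky33 (both genes) and wrky75, with 3 libraries of each treatment per mutant. Only Col-0 had a library numbered 4 in each treatment. Each library came from a pool of 5 rosettes. No transgene or treatment shared by all groups is named in the labels. The positions of the mutant lesions are not given there either, and counts over the mutated genes remained: under ozone WRKY25 stood at 193 ± 25.9 counts-per-million (CPM; mean ± SD, n = 3) in wrky25 wrky33 and at 122 ± 17.7 CPM (n = 4) in Col-0. WRKY33 stood at 331 ± 102 and 519 ± 179 CPM in the same groups, and WRKY75 at 52.3 ± 22.6 CPM (n = 3) in wrky75 and 84.0 ± 41.0 CPM (n = 4) in Col-0. The genotype names below are those of the labels, and these counts do not check them.

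Plastid genes are transcribed by a bacterial-type RNA polymerase (PEP), whose core subunits are plastid genes and whose sigma factors are nuclear, and by a phage-type polymerase encoded in the nucleus (NEP). Many housekeeping genes, the polymerase operon rpoB-rpoC1-rpoC2 among them, are known for NEP promoters, whereas photosynthesis genes mostly depend on PEP. Plastid mRNAs mature by processing of long polycistronic precursors, mostly carry no stable poly(A) tail, and are marked for decay when a tail is added. The libraries were made with a kit that captures poly(A) RNA, so the counts below are a residual of the plastid RNA pool and not its size. In whole rosettes, fewer plastid-containing cells and less RNA per cell cannot be told apart.

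Because the kit captures RNA through its A stretches, coding sequence of 6 members is shown with the first of their longest runs of A in capitals. The genes psaJ, rpl32 and psbA had the most counts per kb, and atpB and rpoB the most counts in all. The sequences are from RefSeq TAIR10.1, 5′ to 3′ on the coding strand. The psaJ gene lies at Pt:66929-67063 (plus strand, whole coding sequence), rpl32 at Pt:113449-113607 (plus strand, whole coding sequence), and the windows of psbA at Pt:1343-1396, atpB at Pt:54076-54135, rpoB at Pt:25659-25718 and ycf1 at Pt:125843-125905 lie inside coding sequence on the minus strand. The gene ycf1 is shown as a contrast, chosen after its values were seen, because it joins one of the longest A runs to one of the lowest levels.
psaJ: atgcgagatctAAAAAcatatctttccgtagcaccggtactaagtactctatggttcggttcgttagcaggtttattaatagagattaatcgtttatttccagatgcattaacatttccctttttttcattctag
rpl32: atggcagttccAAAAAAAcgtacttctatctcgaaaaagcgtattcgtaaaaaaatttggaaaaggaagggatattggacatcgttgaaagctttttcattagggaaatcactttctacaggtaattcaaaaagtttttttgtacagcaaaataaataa
psbA: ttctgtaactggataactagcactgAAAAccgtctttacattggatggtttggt
atpB: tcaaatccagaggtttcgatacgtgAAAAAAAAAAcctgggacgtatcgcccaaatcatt
rpoB: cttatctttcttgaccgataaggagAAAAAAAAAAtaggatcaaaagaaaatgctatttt
ycf1: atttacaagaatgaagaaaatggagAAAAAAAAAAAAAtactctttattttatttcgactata

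The longest run was 5 bases in psaJ (1127.8 counts per kb per library), 7 in rpl32 (1028.3) and 4 in psbA (590.2), against 10 in atpB (453.7) and in rpoB (202.1) and 13 in ycf1 (3.77). Over the 85 members, Spearman's rho between counts per kb and the longest A run was -0.28, and between counts per kb and the percentage of A it was -0.18. Between counts per kb and row length it was -0.17, and A runs were not compared at equal length. The rows of psaJ and rpl32 are short, at 135 and 159 bases, and counts per kb were not corrected for read length. These are descriptions across genes of the same libraries, and genes are not independent replicates.

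All members together held 124538 counts, 0.0302% of the counts of the 20 libraries. The counts were concentrated in few genes, as 5 members held 44.6% and 10 members 61.9% of them, while 18 members had under 100 counts in all. By total counts the order was atpB (13584), rpoB (13012), psbA (12536), rbcL (9784) and psaB (6641). Those genes encode the beta subunit of the ATP synthase, the beta subunit of PEP, the D1 reaction centre protein of photosystem II, the large subunit of Rubisco and a reaction centre protein of photosystem I.

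Per kb of row, the members ranged from 0.817 counts per library in trnK to 1127.8 in psaJ, with a median of 56.3. The leading member of each functional class was psbA for photosystem II, psaJ (a small subunit) for photosystem I, petA (cytochrome f, 86.3) for the cytochrome b6f complex, atpE (464.3) for the ATP synthase, ndhK (55.7) for the NDH complex, rpoB for PEP, rpl32 for ribosomal proteins, cemA (an envelope membrane protein, 119.2) among the others and trnS ATCG00090 (169.3) among the tRNAs. The NDH complex, a photosynthetic relative of respiratory complex I, had a class median of only 16.2 counts per kb, against 140.6 for photosystem II and 181.6 for the ATP synthase. Members low on the scale included matK (19.1), the maturase of group II introns, accD (4.77), a subunit of acetyl-CoA carboxylase, rps4 (16.7), a ribosomal protein of the small subunit, and ycf1 (3.77), a large protein of the envelope import machinery.

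**Figure D1:**
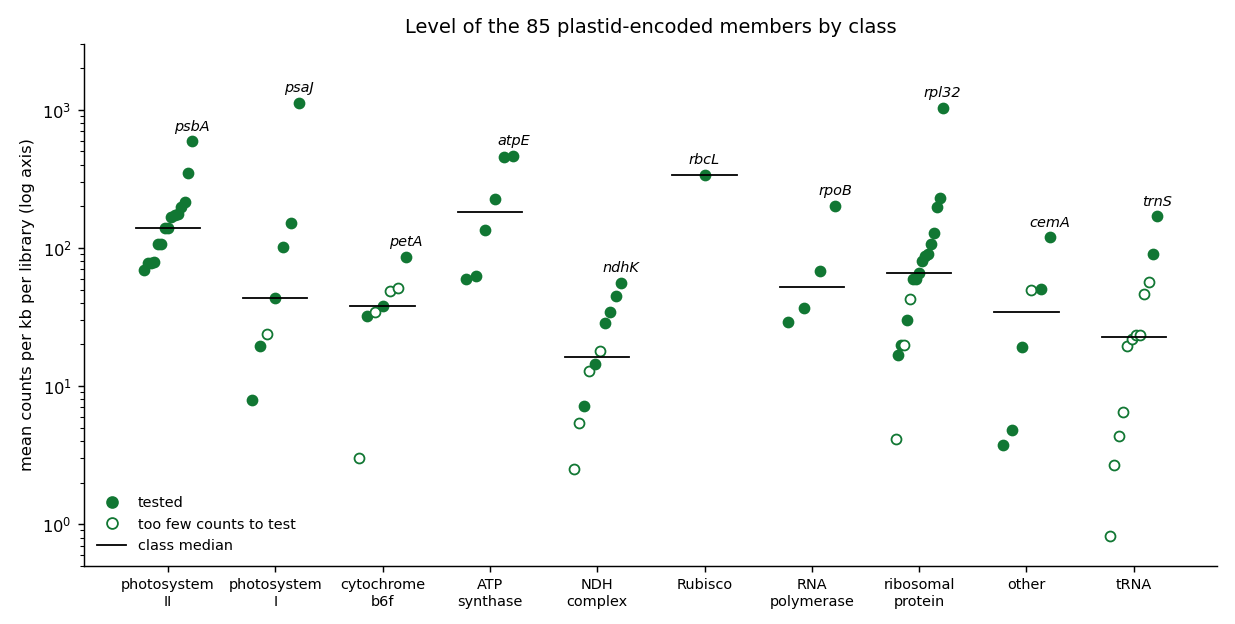
Mean counts per kb per library of the 85 plastid-encoded members on a log axis, by functional class. Filled points were tested, open points had too few counts, lines mark class medians, and the name is that of the highest member; psaJ (1127.8) and rpl32 (1028.3) are highest and trnK (0.817) is lowest.

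Several rows cannot be compared freely. The row length holds introns in 12 members, and per kb of exon the protease subunit gene clpP stood at 169 instead of 50.7, rpl16 at 236 instead of 65.7 and petB (cytochrome b6) at 85.6 instead of 38.2. Rows of psbD and psbC, of atpB and atpE, and of matK and trnK overlap, as do those of rps3 and rpl22. The kit does not mark strand, so reads from psbN and from transcripts of the psbB operon opposite to it cannot be told apart. Of the members, 69 were unique over their whole length at 50 bases, and in psbA 7.70% of the 50-base windows had a copy in the nuclear sequence and 7.70% had one in the mitochondrial sequence.

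No rRNA gene and none of the genes wholly inside the inverted repeat were members. The repeat arms, Pt:84171-110434 and Pt:128215-154478, were found by a script in the 154478 bp sequence and are identical over 26264 bp. Of 36 rows wholly inside them, 28 were at 0 and the rest held 47 counts in all, at most 12 in 1 row. Both copies of ndhB and of ycf2, which lie there, were at 0. Of the 97 rows not wholly inside the repeat, 85 were members. The row of the member ycf1 runs into a repeat arm, so its counts per kb include bases of the repeat. How reads with more than 1 mapping place were treated is not given in the sources used here, so the near absence of the repeat genes cannot be read as absence of their RNA.

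The plastid share of the library stayed between 0.0225% and 0.0377% in 19 of 20 libraries. In Col-0 without ozone it was 0.0272%, 0.0225%, 0.0312% and 0.0508% in replicates 1 to 4, and with ozone 0.0322%, 0.0306%, 0.0268% and 0.0259%. Control replicate 4 stood above every other library, and the rest of the Col-0 values overlapped between the treatments. The exact 95% binomial interval was 0.0499% to 0.0518% for control replicate 4 and 0.0305% to 0.0320% for control replicate 3, the next highest of the group. The intervals cover counting error only.

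In wrky25 wrky33 the share was 0.0271%, 0.0263% and 0.0284% in controls and 0.0330%, 0.0377% and 0.0297% with ozone, so that the 3 ozone libraries lay above the 3 controls. In wrky75 it was 0.0278%, 0.0305% and 0.0296% in controls and 0.0332%, 0.0270% and 0.0261% with ozone, with overlap. The ratio of ozone to control means was 0.877 in Col-0, 1.23 in wrky25 wrky33 and 0.981 in wrky75. Left without control replicate 4, the Col-0 control mean was 0.0270 ± 0.00435% (n = 3) in place of 0.0329 ± 0.0125% (n = 4), and the ratio was 1.07. No p-value is given for these sums over the members.

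The mitochondria-encoded genes, also residual in such libraries, held 0.0044% to 0.0096% of the counts. Their share was 0.00958% and 0.00955% in Col-0 control replicates 3 and 4 and 0.00481% and 0.00473% in replicates 1 and 2. Col-0 control replicate 3 thus matched replicate 4 in the mitochondrial share but not in the plastid share. In wrky25 wrky33 the mitochondrial share was 0.00441% to 0.00526% in controls and 0.00611% to 0.00682% with ozone. The ozone libraries of that mutant thus lay above its controls, as in the plastid share. In Col-0 and wrky75 the mitochondrial shares of the treatments overlapped.

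**Figure D2:**
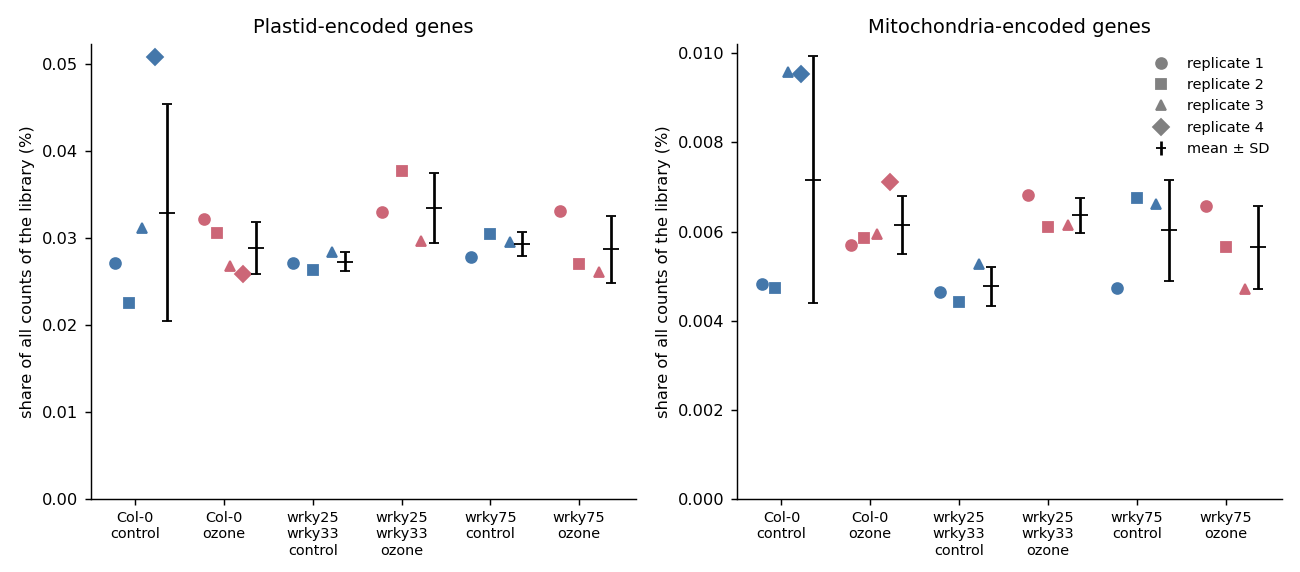
Share of all counts held by plastid-encoded members (left) and by mitochondria-encoded genes (right) in each library, in percent, with mean ± SD per group. Col-0 control replicate 4 stands at 0.0508% on the left, above the other 19 libraries.

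The excess of Col-0 control replicate 4 was uneven over the plastid genes. Its CPM divided by the mean of control replicates 1 to 3 had a median of 1.70 over the 85 members, and 51 members were above 1.5. Summed by class, the ratio was 2.74 for photosystem I, 2.60 for the NDH complex, 2.24 for photosystem II, 2.14 for rbcL, 1.53 for ribosomal proteins, 1.33 for the ATP synthase and 0.887 for the RNA polymerase. Single genes gave 2.97 for psaB, 2.92 for psaA, 2.49 for psbA, 1.12 for atpB, 0.970 for clpP and 0.836 for rpoB. All 7 photosystem I, 13 of 15 photosystem II and 9 of 10 NDH members were above 1.5 in that library, and rpoB, rpoC1 and rpoC2 were below 1. Since the labels name no batch for this replicate, its part in the Col-0 results was measured by leaving it out.

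**Figure D3:**
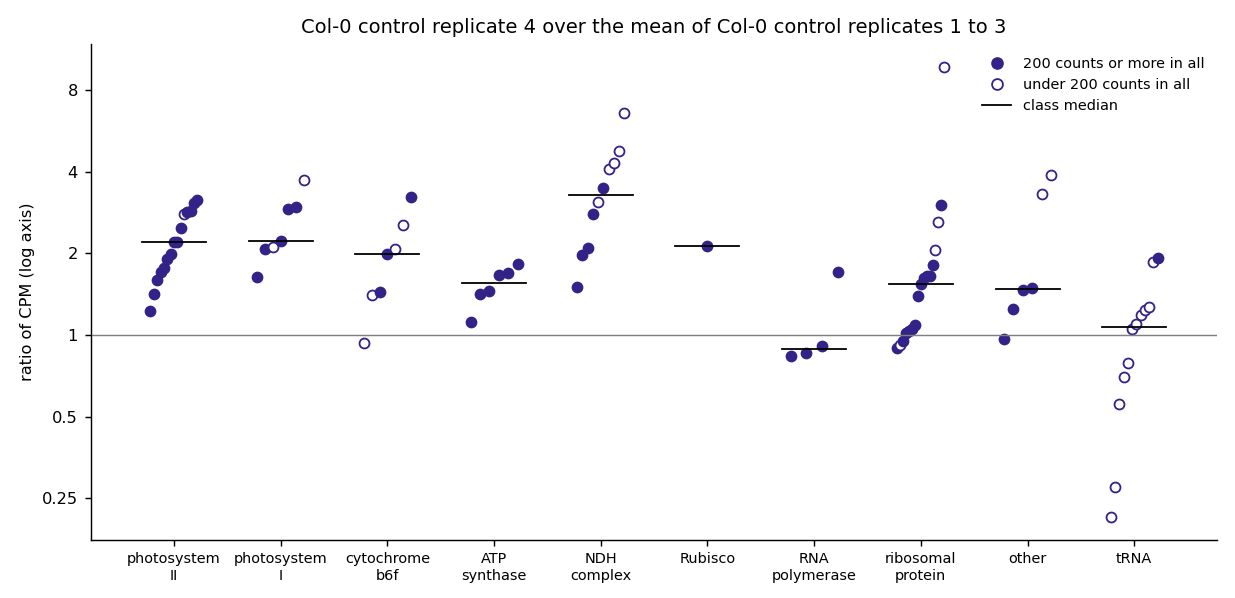
CPM of each member in Col-0 control replicate 4 divided by its mean in Col-0 control replicates 1 to 3, on a log axis, by class, with class medians as lines. Most photosystem and NDH members lie above 1.5, and 3 of 4 RNA polymerase members lie below 1.

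Ozone against control was tested for 62 members, 60 coding and 2 tRNA genes, and the other 23 had too few counts. A called gene is one with an adjusted p under 0.05 in edgeR's quasi-likelihood test over 19954 genes. In Col-0, 3 of 62 members were called, 1 higher and 2 lower, where 69.7% of all genes tested were called, 33.3% higher and 36.4% lower. In wrky25 wrky33, 2 were called, 1 higher and 1 lower, against 65.0% of all genes (31.1% higher and 33.9% lower). In wrky75, 3 were called, 1 higher and 2 lower, against 68.1% (32.0% higher and 36.1% lower). DESeq2 called 2 members in each genotype, and 3 in each had an unadjusted p under 0.05 in edgeR. Over all 19954 genes, 14352, 13575 and 14083 had such a p. Among genes with 10 to 50 counts per library, the range of 31 of the members, 49.1%, 42.3% and 47.1% of all genes were called in Col-0, wrky25 wrky33 and wrky75, and 1, 1 and 2 of the members.

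The members' changes were small relative to their errors. The median log2 fold change was -0.20 in Col-0, 0.15 in wrky25 wrky33 and -0.05 in wrky75, beside -0.08, -0.09 and -0.11 over all genes tested, and the median standard error (SE) of a member was 0.30, 0.34 and 0.35. The 95% interval lay inside a 2-fold change in either direction for 39, 34 and 31 of the 62 members. For the remaining members a change of 2-fold or more was within the interval. No Col-0 member had ozone libraries apart from all controls, against 59.3% of all genes. In wrky25 wrky33 6 members did, against 72.1%, and in wrky75 8 did, against 72.2%. The medians moved with the scaling: with upper-quartile factors those of all genes were -0.28, -0.27 and -0.30 and those of the members -0.40, -0.03 and -0.23. Relative to all genes the members' medians were -0.12, 0.24 and 0.06 with TMM factors and -0.12, 0.24 and 0.07 with upper-quartile factors. The share of higher calls among all calls was 47.7%, 47.8% and 47.0% with TMM factors and 37.2%, 37.6% and 38.0% with upper-quartile factors.

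The direction in Col-0 rested on control replicate 4. With it 18 of 62 members had a log2 fold change above 0, and without it 45 of 61 did, with a median of 0.14. The calls then were accD and rpl22, both higher, in place of rpl16, psaA and trnS. Leaving out both number-4 libraries of Col-0, a choice made after seeing the data, gave 48 of 61 above 0, a median of 0.18, and rpl14, rpl16 and rpl22 called as higher.

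**Figure D4:**
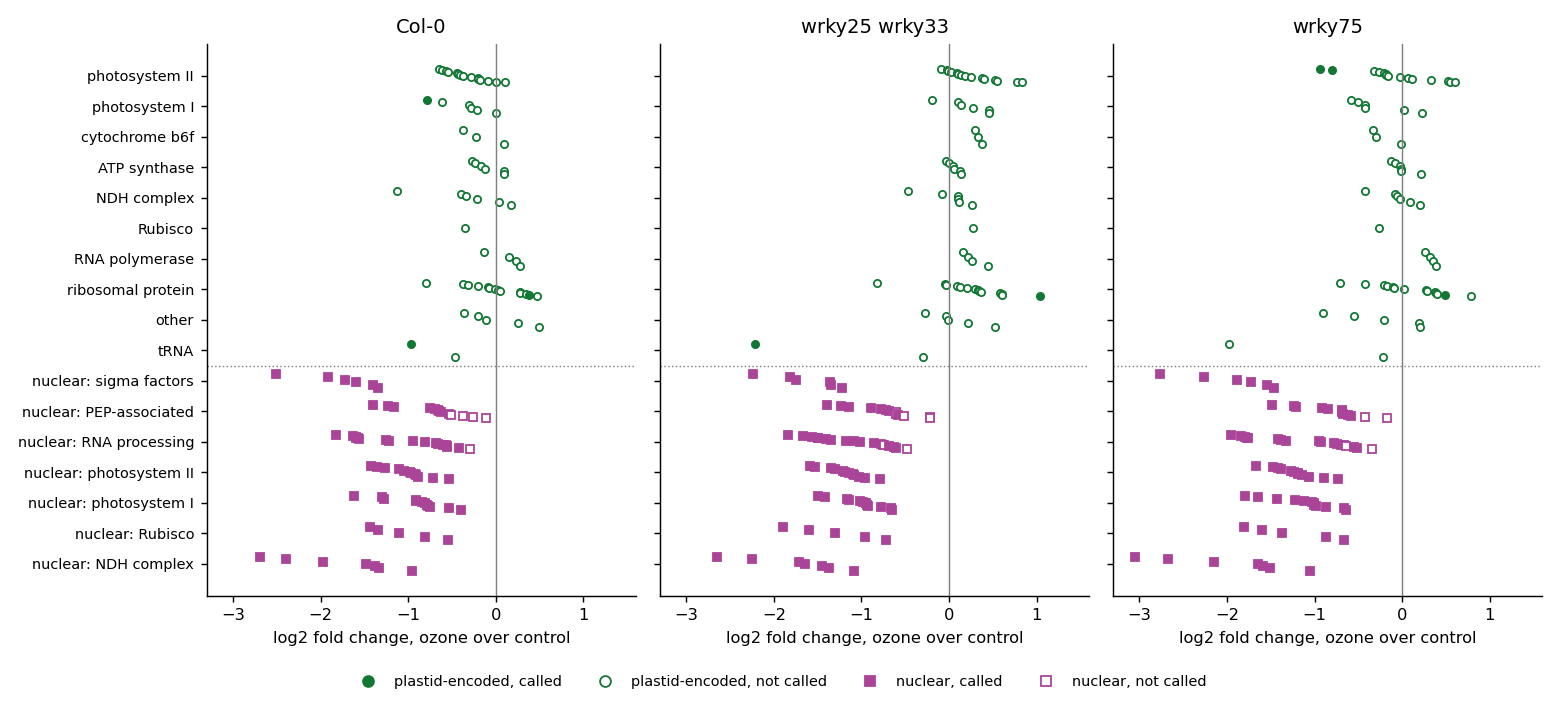
Log2 fold change of ozone over control in the 3 genotypes for tested plastid-encoded members by class (circles) and for nuclear genes of the same complexes or of plastid gene expression (squares). Filled symbols were called; 3, 2 and 3 of 62 plastid-encoded members are filled, whereas most nuclear squares are filled and lie below 0.

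Photosystem II genes had 15 tested members, and none was called in Col-0 or in wrky25 wrky33. For psbA, the counts per library were 472, 409, 717 and 1426 in Col-0 controls and 577, 700, 514 and 622 with ozone. They were 480, 505 and 550 against 587, 811 and 493 in wrky25 wrky33, and 500, 825 and 521 against 693, 664 and 470 in wrky75. The treatments overlapped in every genotype, and the log2 fold changes were -0.28 ± 0.29 (SE), 0.18 ± 0.34 and -0.03 ± 0.33. The core antenna and reaction centre genes gave in Col-0, wrky25 wrky33 and wrky75 -0.18, 0.14 and -0.18 for psbB, -0.37, 0.55 and -0.32 for psbC, and -0.57, 0.10 and -0.21 for psbD, none of them called.

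In wrky75, 2 small photosystem II subunits fell. The gene psbH (ATCG00710, Pt:74485-74706, plus strand) encodes a phosphoprotein and had 35, 25 and 19 counts in controls and 15, 16 and 11 with ozone, without overlap. Its log2 fold change was -0.94 ± 0.36 (edgeR adjusted p = 0.0275). The gene psbM (ATCG00220, Pt:28707-28811, minus strand) had 18, 32 and 34 counts in controls and 15, 21 and 13 with ozone, which overlap in the lowest control, and a log2 fold change of -0.80 ± 0.34 (edgeR adjusted p = 0.043). Neither was called by DESeq2 (adjusted p = 0.0613 and 0.0995). In Col-0 and wrky25 wrky33 the values were -0.41 and -0.09 for psbH and -0.44 and 0.52 for psbM, not called.

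Photosystem I genes had 6 tested members. The reaction centre gene psaA (ATCG00350, Pt:39605-41857, minus strand) had 165, 149, 319 and 662 counts in Col-0 controls and 226, 182, 184 and 134 with ozone. The groups overlap: the lowest library is an ozone one, and control replicates 3 and 4 lie above all ozone libraries. Its log2 fold change was -0.79 ± 0.34 (edgeR adjusted p = 0.0452), and without control replicate 4 it was -0.18 (adjusted p = 0.55). The call was also lost in the fit with the replicate number as a block (-0.61, adjusted p = 0.098). It held in only 6 of 20 fits that each left out 1 library.

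The partner gene psaB had 239, 190, 416 and 900 counts in Col-0 controls and 347, 295, 215 and 246 with ozone (-0.61 ± 0.35, not called). In wrky75 both were at similar values, -0.42 ± 0.39 for psaA and -0.43 ± 0.40 for psaB, and in wrky25 wrky33 at 0.14 ± 0.39 and 0.27 ± 0.40, not called. The 2 genes together held 10.2 ± 3.70% of plastid counts in Col-0 controls and 7.60 ± 0.697% with ozone, 9.80 ± 0.794% and 7.44 ± 1.95% in wrky75, and 8.49 ± 0.601% and 8.69 ± 0.331% in wrky25 wrky33. The highest Col-0 control value, 14.9%, was that of replicate 4. The class leader psaJ was at 0.00 ± 0.26, 0.10 ± 0.30 and 0.22 ± 0.30.

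In the remaining photosynthesis classes, none of 6 ATP synthase, 3 cytochrome b6f or 6 NDH members tested was called in any genotype, nor was rbcL. The most counted gene, atpB, varied little, with 783, 542, 580 and 766 counts in Col-0 controls and 698, 708, 609 and 762 with ozone. Its log2 fold changes were 0.09 ± 0.14, 0.04 ± 0.16 and -0.03 ± 0.16, and the 95% intervals ran from -0.20 to 0.37, from -0.29 to 0.36 and from -0.36 to 0.30. For petB they were -0.23, 0.33 and -0.33.

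The Rubisco gene rbcL had 337, 324, 624 and 984 counts in Col-0 controls and 516, 443, 444 and 335 with ozone. In wrky25 wrky33 it had 374, 406 and 469 against 505, 628 and 496, with the ozone libraries above the controls before scaling, and in wrky75 390, 684 and 498 against 568, 384 and 375. The log2 fold changes were -0.35 ± 0.27, 0.27 ± 0.31 and -0.26 ± 0.31.

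None of the 4 genes of PEP itself was called in a single genotype. The gene rpoB (ATCG00190, Pt:23111-26329, minus strand) had 571, 529, 668 and 530 counts in Col-0 controls and 848, 653, 733 and 446 with ozone. In wrky25 wrky33 it had 599, 603 and 716 against 760, 816 and 757, and in wrky75 572, 460 and 669 against 834, 584 and 664. The Col-0 ozone libraries hold both the highest and the lowest value of that genotype. The log2 fold changes were 0.23 ± 0.17, 0.16 ± 0.19 and 0.26 ± 0.19.

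The other polymerase subunit genes, named after their values were seen, gave 0.28, 0.22 and 0.32 for rpoC1, 0.15, 0.26 and 0.35 for rpoC2 and -0.14, 0.45 and 0.38 for rpoA. The operon rpoB-rpoC1-rpoC2 held 13.7 ± 4.09% of plastid counts in Col-0 controls and 16.5 ± 3.27% with ozone, 16.9 ± 1.32% and 17.03 ± 0.890% in wrky25 wrky33, and 13.6 ± 2.68% and 17.1 ± 1.68% in wrky75. Its lowest share, 7.63%, was that of Col-0 control replicate 4.

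Among 14 ribosomal protein genes tested, 1 was called in each genotype, each time a different one. In Col-0 it was rpl16 (ATCG00790, Pt:81189-82652, minus strand), with 69, 103, 87 and 88 counts in controls and 102, 157, 99 and 86 with ozone. These overlap, and the log2 fold change was 0.38 ± 0.16 (edgeR adjusted p = 0.0474). Without ozone replicate 2, the highest library, it was 0.17 (adjusted p = 0.301). The call held in only 5 of 20 fits that each left out 1 library. In wrky25 wrky33 rpl16 was at 0.30 ± 0.19 and in wrky75 at 0.39 ± 0.19, not called.

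In wrky75 the neighbouring gene rpl14 (ATCG00780, Pt:80696-81064, minus strand) rose from 59, 50 and 58 counts to 92, 75 and 73, without overlap. Its log2 fold change was 0.49 ± 0.19 (edgeR adjusted p = 0.0268), and 0.28 ± 0.16 and 0.34 ± 0.18 in Col-0 and wrky25 wrky33, not called. Together rpl14 and rpl16 held 2.22 ± 0.109% of plastid counts in wrky75 controls and 3.14 ± 0.290% with ozone. The highest control was at 2.34% and the lowest ozone library at 2.81%.

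In wrky25 wrky33 the called gene was rpl33 (ATCG00640, Pt:67488-67688, plus strand), with 11, 3 and 7 counts in controls and 22, 16 and 9 with ozone. Its log2 fold change was 1.04 ± 0.42 (edgeR adjusted p = 0.0373), against -0.20 ± 0.33 in Col-0 and -0.71 ± 0.43 in wrky75. Without control replicate 2 it was 0.68 (adjusted p = 0.17) and without ozone replicate 1 it was 0.70 (adjusted p = 0.192). The ribosomal gene rps4 was at -0.09, -0.04 and 0.02.

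**Figure D5:**
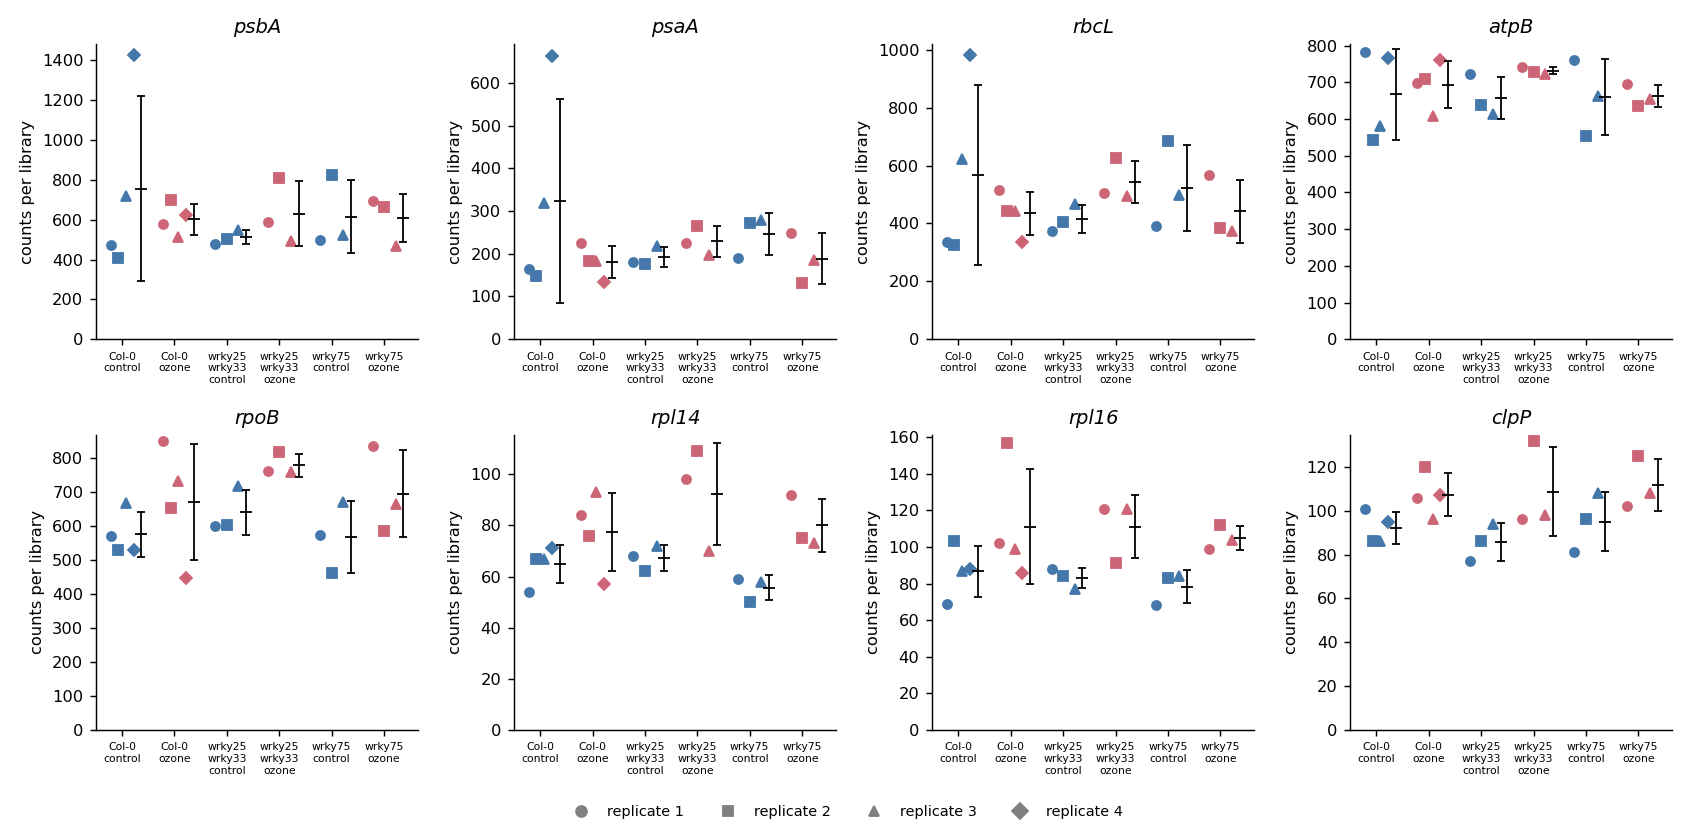
Counts per library of 8 plastid-encoded genes by group, with replicates as symbols and mean ± SD (n = 4 for Col-0 and 3 for the mutants) as black bars; every axis starts at 0. Col-0 control replicate 4 is the highest point for psbA (1426), psaA (662) and rbcL (984) but not for rpoB (530) or atpB (766).

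Of the 5 other coding genes tested none was called in a single genotype. For clpP the log2 fold changes were 0.25 ± 0.14, 0.22 ± 0.16 and 0.20 ± 0.16, for matK -0.20 ± 0.27, -0.04 ± 0.30 and -0.55 ± 0.31, and for ycf1 -0.11 ± 0.41, -0.27 ± 0.49 and 0.19 ± 0.47. For accD, with 140 counts in all, they were 0.49 ± 0.49, 0.52 ± 0.55 and -0.90 ± 0.60.

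Both tRNA genes tested were called as lower once. The gene trnH (ATCG00010, Pt:4-76, minus strand) had 14, 15 and 15 counts in wrky25 wrky33 controls and 6, 2 and 2 with ozone, without overlap (log2 fold change -2.21 ± 0.86, edgeR adjusted p = 0.0313). In wrky75 it had 8, 6 and 10 against 0, 3 and 3 (-1.98 ± 1.04, not called), and in Col-0 13, 5, 8 and 2 against 0, 16, 4 and 0. The gene trnS (ATCG00090, Pt:7785-7872, plus strand) had 14, 9, 16 and 27 counts in Col-0 controls and 8, 6, 14 and 5 with ozone (-0.97 ± 0.38, edgeR adjusted p = 0.0319). Without control replicate 4 it was -0.62 (adjusted p = 0.176). Mature tRNAs are short and carry no poly(A) tail, and reads over these rows may belong to longer transcripts, which the files do not separate.

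Averaging the ozone change over the 3 genotypes, a comparison added after seeing the data, called 5 of 62 members where 81.0% of all genes tested were called, 37.4% higher and 43.6% lower. The 3 higher genes were rpl14 (0.37 ± 0.10, edgeR adjusted p = 0.00285), rpl16 (0.36 ± 0.11, adjusted p = 0.00458) and clpP (0.22 ± 0.09, adjusted p = 0.0262). The 2 lower ones were trnH (-1.55 ± 0.52, adjusted p = 0.0109) and psbH (-0.48 ± 0.20, adjusted p = 0.038). For 60 of 62 members the 95% interval lay inside a 2-fold change in either direction.

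Without Col-0 control replicate 4 the averaged comparison called 10 of 61 members. Of these, 9 were higher, namely rpl14, rpl16, rpl22, rps3, rpoA, rpoB, rpoC1, clpP and psbF, and trnH was lower. The share of all genes called without that library is not given here. With all 20 libraries it was 81.0%, 37.4% higher and 43.6% lower. Without Col-0 control replicate 4 the class medians were 0.30 for the RNA polymerase, 0.23 for ribosomal proteins, 0.17 for cytochrome b6f and 0.12 for photosystem II. They were 0.12 for the NDH complex, 0.08 for the ATP synthase, 0.06 for rbcL and 0.04 for the other coding genes. Photosystem I was at 0.01 and the tRNAs at -0.97, and 49 of 61 members were above 0. With upper-quartile factors, which move the median of all genes from -0.09 to -0.28, the comparison over all libraries called 11 members, all lower. In that fit 16680 genes in all were called, 10430 of them lower. The members' median moved from -0.03 with TMM factors to -0.22, and the number of members above 0 from 30 to 11, so both depended on the scaling. The log2 fold changes of rpl14, rpl16 and clpP stayed above 0 under every alternative run, at lowest 0.18, 0.17 and 0.03. None of these genes was called as higher with upper-quartile factors. Relative to the median of all genes, the members' median was 0.06 higher under TMM, RLE and upper-quartile factors alike.

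The mutants were compared with Col-0 to ask whether the WRKY genes affect plastid transcripts, and no member was called by edgeR in any of these 6 comparisons, nor by DESeq2. In control conditions 0.0251% of all genes were called for wrky25 wrky33 and 0.0251% for wrky75. An unadjusted p under 0.05 in edgeR was found for 1 of 62 members each, beside 683 and 931 of 19954 genes. With ozone 5.33% were called for wrky25 wrky33 and 0.0251% for wrky75. Such a p was found for 0 and 1 members, beside 3069 and 333 genes. For the difference of the ozone response from that of Col-0, 0.957% and 0.0% of genes were called. Such a p was found for 5 of 62 members (8.06%) and for 0, beside 1810 and 349 of 19954 genes.

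The 5 members in the response difference of wrky25 wrky33 were, by values seen, psbM (0.96), psbE (1.39), rpl33 (1.24), rps18 (1.41) and rps2 (-1.29), with edgeR adjusted p from 0.363 to 0.522. For psaA the difference was 0.93 (95% interval -0.16 to 2.02) in wrky25 wrky33 and 0.38 (-0.71 to 1.46) in wrky75. For atpB it was -0.05 (-0.48 to 0.39) and -0.12 (-0.55 to 0.32), for rpoB -0.07 (-0.61 to 0.47) and 0.02 (-0.51 to 0.56). In ozone, wrky25 wrky33 differed from Col-0 by 0.25 (-0.37 to 0.86) for rbcL and by -0.02 (-0.68 to 0.64) for psbA. The comparisons with Col-0 share its libraries, control replicate 4 included.

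Nuclear genes for the same complexes were mostly called as lower in the same fit, where 36.4%, 33.9% and 36.1% of all genes were lower. The lists were nuclear subunits of photosystem II, of photosystem I and of NDH, Rubisco small subunits with the activase, and a joint list of cytochrome b6f, plastocyanin and ATP synthase. In each genotype, 12 of 12, 12 of 12, 7 of 7, 5 of 5 and 7 of 7 of them were called as lower. In Col-0 their median log2 fold changes were -0.97, -0.82, -1.48, -1.11 and -0.92, beside -0.37, -0.30 and -0.28 for the plastid-encoded members of photosystem II, photosystem I and NDH. Without Col-0 control replicate 4 these plastid medians were 0.12, 0.06 and 0.38, and in wrky25 wrky33 they were 0.18, 0.20 and 0.10. The oxygen-evolving protein gene PSBO2 fell from 2026.1 ± 157 to 840.2 ± 235 CPM in Col-0 (-1.27 ± 0.19, edgeR adjusted p = 1.13e-05), and the Rubisco activase gene RCA from 13669 ± 1117 to 5357 ± 2035 CPM (-1.35 ± 0.25, adjusted p = 0.000109). The Clp core and acetyl-CoA carboxylase genes, partners of clpP and accD, were lower in 8 of 12.

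Nuclear genes that act on plastid transcription also fell. All 6 sigma factor genes were called as lower in each genotype, with medians of -1.66, -1.56 and -1.81. In Col-0, SIG4 fell from 29.6 ± 4.09 to 5.22 ± 2.73 CPM (-2.51 ± 0.27, edgeR adjusted p = 2.11e-07) and SIGA from 246.6 ± 15.2 to 65.3 ± 25.5 CPM (-1.92 ± 0.22, adjusted p = 5.04e-07). Among 13 genes of PEP-associated proteins 9, 8 and 10 were lower in Col-0, wrky25 wrky33 and wrky75, and among 18 genes of plastid RNA processing and stability 16 in each, with PGR3 (-1.82 ± 0.25, adjusted p = 4.02e-06) the largest in Col-0.

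Of 3 phage-type organelle polymerases, the gene of a plastid enzyme, SCA3, fell in Col-0 (-0.53 ± 0.19, edgeR adjusted p = 0.0203), and AT1G68990, known for the mitochondrial enzyme, rose (0.69 ± 0.12, adjusted p = 6.56e-05). The remaining polymerase gene was at 0.02 in Col-0 and was not called. The 4 plastid core genes of PEP, rpoA included, were at -0.14 to 0.45 over the 3 genotypes without a call. The difference between nuclear and plastid-encoded genes was not tested as such. Of 15 mitochondria-encoded genes tested, 1, 3 and 0 were called as higher and none as lower, where 33.3%, 31.1% and 32.0% of all genes tested were higher and 36.4%, 33.9% and 36.1% lower.

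Facts of the whole series that touch these values are few. Library totals ran from 20486137 to 20771667 counts. No step that would make them so nearly equal is given in the sources used here, so they may not be the sequenced depth. The small-subunit gene RBCS1A, a leaf marker, was at 7676 to 20308 CPM, and the root gene PYK10 was at 16.6 to 79.8 CPM. The flower, seed and root hair markers AP3, OLEO1 and EXPA7 were at 0.101 CPM or less. A further flower gene, PI, reached 0.462 CPM and a further seed gene, CRA1, 0.151 CPM. The summed level of the 7 markers of other organs was 19.1 to 82.3 CPM in Col-0 controls and 23.8 to 42.2 CPM with ozone, and its part in the results was not tested. Of these markers 2 were tested, and the flower gene AG was lower with ozone in each genotype, at 0.261 to 2.72 CPM over the libraries.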

How the data were processed

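RNA of 20 rosette pools was sequenced with a poly(A)-selecting kit that does not mark strand, per the labels' protocols. The authors deposited whole-number read counts per gene, and the submitters' processing notes list HTSeq, TopHat2, SAMtools, FastQC and the TAIR10 build. Not given in the sources used here were versions, settings and the treatment of reads with several mapping places. Groups and replicate numbers came from the labels, which call the pools biological replicates. Members were the plastid rows with at least 20 counts in all. Symbols came from RefSeq TAIR10.1 by position, where 124 of 133 rows matched exactly, and positions are 1-based. Members, classes and lists were chosen with earlier results of these data known. Named were all called members, the leader per kb of each class, a fixed set of well-known genes, and examples from the nuclear lists, each among the up to 4 called members of its list with the largest change; others are said to be chosen by their values.

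Counts of all genes entered 1 fit of edgeR 4.0.16 (R 4.3.3) over the 6 groups and 20 libraries, with filterByExpr, TMM factors, the quasi-likelihood F-test and Benjamini-Hochberg adjustment over 19954 genes, threshold 0.05. SEs are the log2 fold change over the root of F, and 95% intervals use the fit's degrees of freedom. The biological coefficient of variation was 17.2%. The fit was tested on simulated data with a common dispersion, few changed genes and no outlying library. That test therefore does not cover the effect of Col-0 control replicate 4 or of the scaling. Alternatives were RLE and upper-quartile factors, scaling by nuclear genes, no filter, DESeq2 1.42.0, a replicate block, the compared groups alone, and leaving out each library. No libraries of a group agreed within sampling noise (chi-square per degree of freedom 6.47 to 69.0). Over all genes tested, same-numbered mutant and Col-0 libraries deviated together (correlations 0.101 to 0.705, all 12 over 0.1), which by that measure pairs them. The measure is loose, as wrky75 control replicate 3 and Col-0 control replicate 1 gave 0.182. Fold changes and intervals against Col-0 are from the fit without pairing. Same-numbered ozone and control libraries gave mixed values (-0.081 to 0.271, 4 of 9 over 0.1). Over the tested plastid members alone, the mutant and Col-0 correlations ran from -0.219 to 0.559, with both signs. P-values measure the spread between pools. Amino acid sequences were not used here.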

Additional observations from a re-analysis of the deposited data

Results flagged for a closer look

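Single libraries far from the rest of a group of 4 were looked for in 58 groups with Dixon's ratio, which by chance picks out about 1 in 20 groups. In Col-0 controls, accD had 14 counts in its highest library, replicate 4, against 4, 3 and 3 in the others. In Col-0 ozone, psbH had 25 counts in its highest library, replicate 1, against 12, 11 and 10. Both are low counts, and 2 of 58 is no more than chance gives. For groups of 3 no such test was made.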

How the results depend on the processing

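Calls on plastid members were few and mostly near the threshold. In Col-0 the count of 3 became 8 with upper-quartile factors, all lower, where 14612 genes in all were called, 9176 of them lower. It became 1 without the filter on low counts, 0 with only the groups compared in the fit, and 2 with the replicate block. Leaving out 1 library gave 1 to 7, with 7 without control replicate 2, 5 without ozone replicate 1 and 1 without any of several mutant libraries. In wrky25 wrky33 the count of 2 became 4 with only the groups compared and 4 without both number-4 libraries of Col-0, and 1 to 4 on leaving out 1 library, the 4 without Col-0 control replicate 4. In wrky75 the count of 3 became 1 without the filter and 1 to 5 on leaving out 1 library, the 5 without Col-0 ozone replicate 2. Averaged over the genotypes, the count of 5 became 9 with RLE factors, 11 with upper-quartile factors, 9 with DESeq2, 8 with the replicate block and 12 without both number-4 libraries, and 3 to 10 on leaving out 1 library, the 3 without control replicate 1 of either mutant, 9 without wrky75 control replicate 3 and the 10 without Col-0 control replicate 4. The replicate block changed no call in the 6 comparisons with Col-0, which stayed at 0 under every alternative run. The share ratios ran from 0.793 to 1.11 in Col-0, 1.15 to 1.30 in wrky25 wrky33 and 0.905 to 1.03 in wrky75. Of 44 values without a call for the 15 genes named whatever their call, 22 changed sign and 7 gained a call under at least 1 alternative. The causes were not tested. Only 62 of 85 members had counts enough to test, and at these counts changes under 2-fold were often within the error.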
